A study of Rattus norvegicus with 2 samples.

Results

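Natural killer (NK) receptor and cytotoxic granule genes were examined in rat spleen. The rule for choosing them used gene symbols and no signal: every gene whose symbol starts with Klr, Ly49 or Gzm, together with Prf1, Nkg7, Ctsw, Ncr1, Ncr3, Tbx21, Eomes, Tyrobp, Fcer1g and Hcst. This gave 36 transcript clusters of the 23188 on the array, each of which sums up the probes for 1 gene, and each of the 36 symbols had 1 cluster. They were 19 killer lectin receptors, 2 natural cytotoxicity receptors, 3 adaptors, 11 granule genes and 1 transcription factor. Eomes was not analysed here. The RefSeq annotation of the GRCr8 assembly lists 68 genes with such symbols, and the other 32 were not analysed here.

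Total RNA came from the spleen of 1 male Sprague-Dawley rat given cocaine and of 1 male control rat. By the study's account, rats were 6 weeks old when the experiments started. Cocaine hydrochloride was injected intraperitoneally at 50 mg/kg once a day for 7 days, and spleens were taken 24 h after the last dose. By the methods, control rats received the same volume of saline. The title of the control sample reads No Stimulation, whereas its treatment label repeats that of the cocaine sample, so that its group was taken from the title. Each RNA was hybridized to 1 Clariom S array, an oligonucleotide array that gives 1 signal per transcript cluster on a log2 scale. With 1 rat in each group there was no replicate, no error and no test, and every value below compares 2 spleens, not 2 treatments.

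NK cells and CD8 T cells kill infected or altered cells by releasing granules. Perforin opens the membrane of the target cell, and granzymes, which are serine proteases, enter it and set off cell death. Whether an NK cell releases its granules depends on surface receptors. In rodents most of these are C-type lectin-like proteins of the Ly49 and NKG2 families, encoded side by side in the NK gene complex. Inhibitory members read MHC class I molecules on healthy cells, and activating members signal through small adaptor proteins. The spleen holds NK cells mainly in its red pulp.

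The promoters of the 3 genes that were 2-fold higher in the cocaine rat, and that of perforin, are shown to give the sequence context of receptor and granule genes. They are the 250 bases before the annotated start in RefSeq (GRCr8), 5′ to 3′ on the strand of the gene, for Gzma (chr2:46485697-46485946, minus strand), Prf1 (chr20:29788790-29789039, plus strand), Klrc1 (chr4:164838447-164838696, minus strand) and Klrc2 (chr4:164819866-164820115, minus strand). Capitals mark letters of 3 motifs searched on both strands, namely AGGTGT, a half-site of T-box factors such as Tbx21, TGTGGT, the core bound by Runx factors, and TTCNNNGAA, the palindrome bound by STAT factors.
Gzma: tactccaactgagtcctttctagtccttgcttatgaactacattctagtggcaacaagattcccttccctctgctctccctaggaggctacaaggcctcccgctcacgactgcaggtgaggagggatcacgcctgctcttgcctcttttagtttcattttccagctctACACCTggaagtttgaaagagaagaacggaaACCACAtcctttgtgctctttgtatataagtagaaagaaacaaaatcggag
Prf1: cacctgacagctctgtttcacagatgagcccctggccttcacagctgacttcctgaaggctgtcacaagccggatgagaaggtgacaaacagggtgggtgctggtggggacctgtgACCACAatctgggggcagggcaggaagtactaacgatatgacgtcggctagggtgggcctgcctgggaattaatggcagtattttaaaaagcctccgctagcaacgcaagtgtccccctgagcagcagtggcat
Klrc1: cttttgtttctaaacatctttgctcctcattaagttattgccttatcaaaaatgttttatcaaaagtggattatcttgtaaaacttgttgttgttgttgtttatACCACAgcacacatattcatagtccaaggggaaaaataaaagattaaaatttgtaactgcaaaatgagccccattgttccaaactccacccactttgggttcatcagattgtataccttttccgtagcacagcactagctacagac
Klrc2: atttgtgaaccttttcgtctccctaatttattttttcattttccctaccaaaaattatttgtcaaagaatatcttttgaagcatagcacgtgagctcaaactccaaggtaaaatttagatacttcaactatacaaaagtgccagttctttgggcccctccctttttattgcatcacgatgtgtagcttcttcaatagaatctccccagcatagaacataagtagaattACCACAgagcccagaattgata

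A promoter was found for 29 of the 36 genes, and in none of these did the letters of different motifs overlap. The Runx letters were present in 9 of 9 granule gene promoters and in 4 of 17 receptor promoters, those of Klrc1, Klrc2, Klri2 and Klrk1, against 14.1% of 27457 promoters of the same length. Granule gene promoters held 45.2% to 57.6% G and C, and 17.2% of the 11187 promoters in that range had the Runx letters. Receptor promoters held 22.8% to 44.8%, and 16.0% of the 7480 promoters in that range had them. In Gzma the Runx letters began 51 bases before the start, in Prf1 134, in Klrc1 146 and in Klrc2 22. The T-box letters were present in 2 of 9 granule gene promoters (Gzma and Gzmf), in 1 of 17 receptor promoters (Klrb1) and in 11.4% of all. The STAT letters were present in 2 of 9 granule gene promoters (Gzmb and Nkg7), in 5 of 17 receptor promoters and in 7.52% of all. In the range of G and C of the receptor promoters, 11.3% had them, and in that of the granule gene promoters 8.03%. These promoters are not independent, since that of Gzmf was 86.8% identical to that of Gzmfl1, and that of Ly49si2 was 99.2% identical to that of Ly49si3. The motifs were picked with the signals known, and a match is only a run of letters.

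Signals of 23 background features on the arrays reached 7.76 in both rats, and a gene was called above background where at least 1 of its signals was higher. Of the 36 genes, 19 were above background, 18 of them on both arrays. These were 11 of 19 killer lectin receptors, 5 of 11 granule genes and 3 of 3 adaptors. Both natural cytotoxicity receptors and Tbx21 were not above background. For the 17 genes with both signals under background, the size and direction of a difference cannot be read as a difference in RNA. Every difference is the log2 signal of the cocaine rat minus that of the control rat, so that a value of 1 stands for a doubled signal under cocaine.

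**Figure D1:**
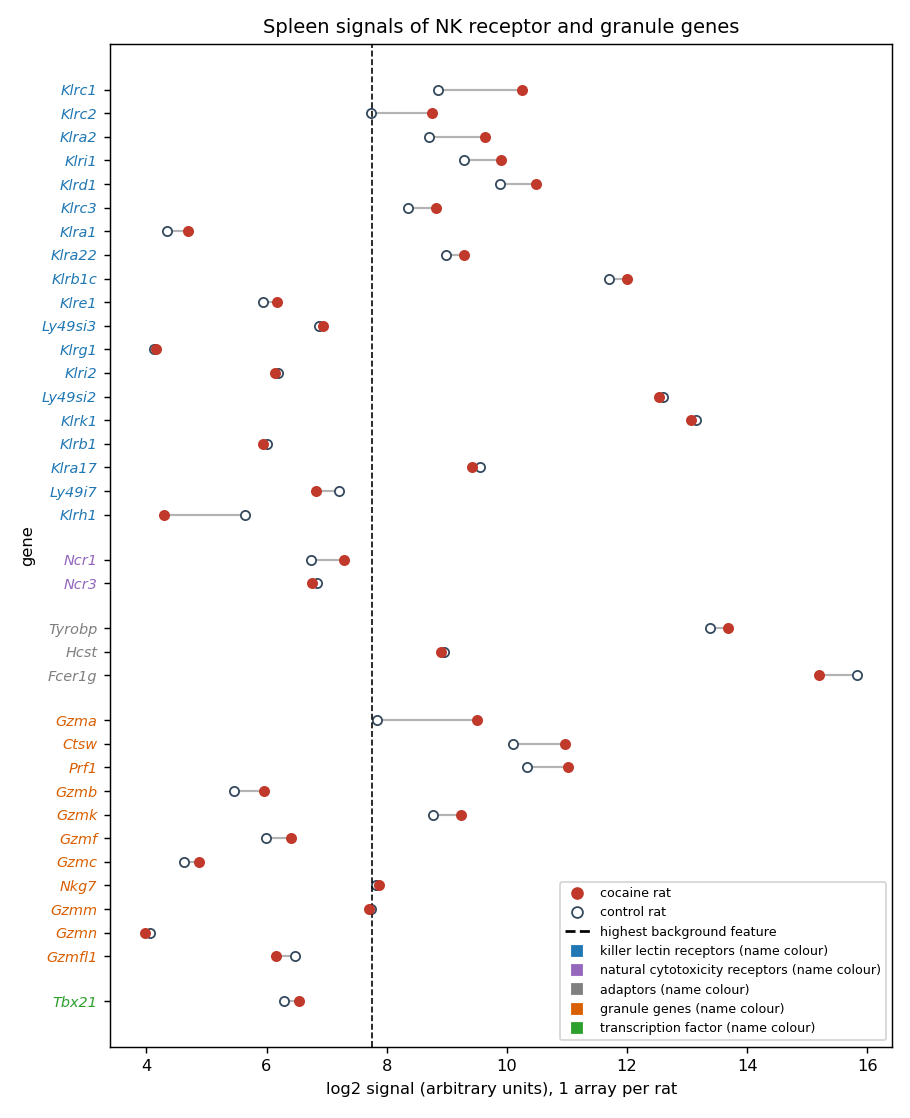
Log2 signal of each of the 36 genes, with 1 row per gene, grouped by class and ordered by difference. Filled points are the cocaine rat and open points the control rat (1 array each), and the dashed line is the highest background feature (7.76). The widest gaps to the right of the line are those of Gzma and Klrc1, and 17 genes lie left of the line on both arrays.

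Gzma, Klrc1 and Klrc2 were at least 2-fold higher in the cocaine rat, which is 3 of 36 genes, beside 2.6% of all transcript clusters. Klrh1 was at least 2-fold lower, which is 1 of 36, beside 4.57% of all transcript clusters, but both of its signals were under background. The count of 3 rests on Klrc2, which lay close to the threshold with its control signal under background. It was 2 with signals under background raised to it or with loess scaling, and 4 under 3 of 5 scalings, where Klra2 passed 2-fold too. Among the 19 genes above background, 3 were 2-fold higher and 0 were 2-fold lower, beside 3.38% and 8.54% of the 10223 transcript clusters above background. Of the 3, Gzma and Klrc1 were above background on both arrays, whereas Klrc2 was so in the cocaine rat alone, and the count is therefore only a description. At 1.5-fold, 8 of 36 were higher, beside 12.7% of all transcript clusters, and 2 of 36 were lower, beside 11.2%. The 8 were Gzma, Ctsw, Prf1, Klrc1, Klrc2, Klra2, Klri1 and Klrd1, and the 2 were Fcer1g and Klrh1. Differences were above 0 for 23 genes and below 0 for 13, beside 12532 and 10654 of the 23188 transcript clusters. Of the 23 genes, 9 were under background.

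The median difference of the 36 genes was 0.25, that of all transcript clusters being 0.05 with quartiles of -0.27 and 0.35. For the 19 genes above background it was 0.46, while for all transcript clusters above background it was 0.02. For the 17 genes under background it was 0.04, near that of all transcript clusters under background (0.06). Klrc2 passed as above background through its cocaine signal alone, so that the median over genes above background is only a description.

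**Figure D2:**
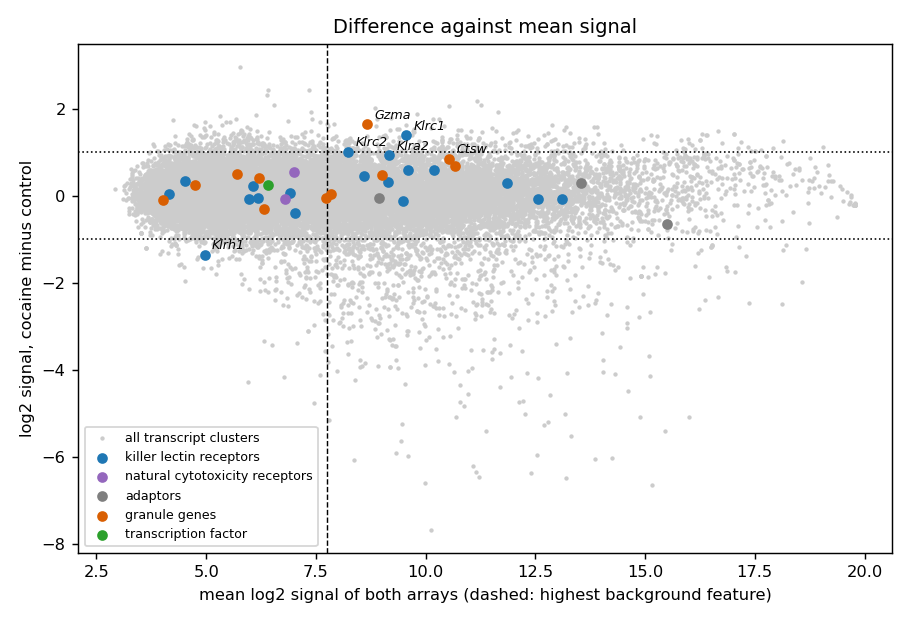
Difference in log2 signal (cocaine minus control) against the mean log2 signal of both arrays for all 23188 transcript clusters (grey) and the 36 genes (coloured by class). Dotted lines mark 2-fold and the dashed line the highest background feature (7.76); Gzma, Klrc1 and Klrc2 lie above the upper dotted line, and many grey points, but no coloured point above background, lie below the lower one.

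Killer lectin receptors were compared with granule genes. The median difference of the 11 granule genes was 0.41 and that of the 19 receptors 0.23, which is 0.18 higher for granule genes. Both medians were the values of genes under background (Gzmf and Klre1). This gap therefore cannot be read as a difference in RNA. Among genes above background, the median was 0.68 for 5 granule genes and 0.46 for 11 receptors. Of these receptors, Klrc2 passed as above background through its cocaine signal alone, so that these medians are only a description. Without Gzma, the granule gene with the largest difference, the medians were 0.33 and 0.23, again from genes under background. The classes overlapped widely, since granule genes ranged between -0.31 and 1.65 and receptors between -1.35 and 1.39. All 5 granule genes above background had a difference above 0, as had 8 of 11 receptors above background, Klrc2 among them. Of the 10223 transcript clusters above background, 5238 had a difference above 0.

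**Figure D3:**
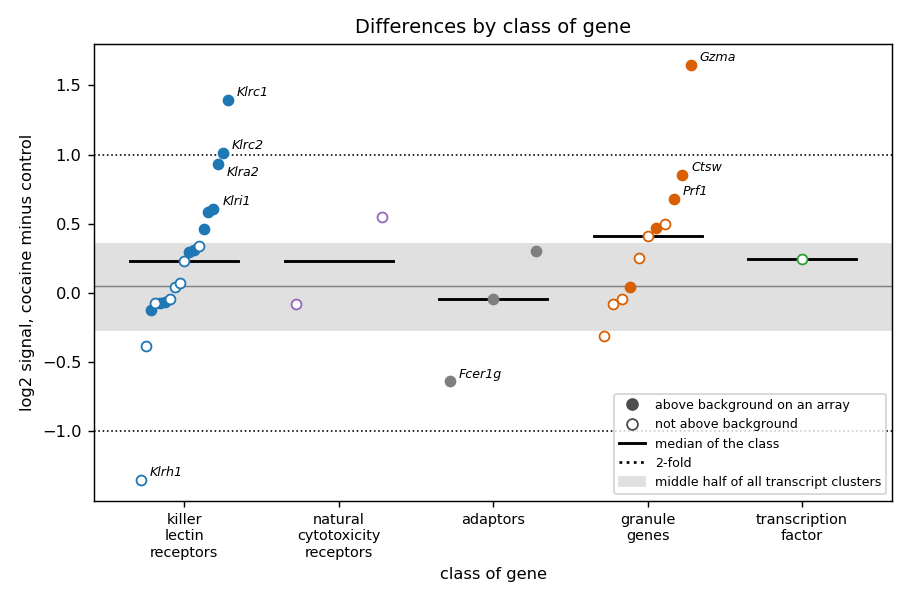
Difference in log2 signal (cocaine minus control) of each gene by class. Filled points are above background on at least 1 array, bars are class medians, dotted lines mark 2-fold, and the grey band spans the quartiles of all transcript clusters (-0.27 to 0.35) around their median (grey line). The medians are 0.23 for killer lectin receptors and 0.41 for granule genes, both values of genes under background, and the points of both classes overlap.

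The 2 receptors with the highest differences, Klrc1 and Klrc2, belong to the CD94/NKG2 family. Klrd1 encodes CD94, the common chain that pairs with NKG2 proteins, and these dimers read a non-classical MHC class I molecule. Klrc1 encodes the inhibitory chain NKG2A. Its signal was 10.25 in the cocaine rat against 8.86 in the control rat, a difference of 1.39 (2.63-fold, rank 95 of 23188 from the highest). Klrc2 encodes the activating chain NKG2C. Its signal was 8.75 in the cocaine rat against 7.73 in the control rat, the control value being under background, a difference of 1.01 (at least 1.99-fold with the control signal raised to background). The genes of an inhibitory and of an activating chain thus both had a higher signal in the cocaine rat, but whether probes of 1 Klrc gene also bind transcripts of another was not tested. Klrc3, a further NKG2 chain, had 8.82 in the cocaine rat against 8.36 in the control rat, a difference of 0.46. Klrd1 itself had 10.48 in the cocaine rat against 9.89 in the control rat, a difference of 0.59. All 4 genes of the family had a difference above 0, with a median of 0.80. Over the other 15 receptors the median was 0.04, and 8 of these were under background. The other 7, all above background, had a median of 0.30, with 4 differences above 0. The CD94/NKG2 family was singled out with the differences known, so that these medians are only a description.

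Klrk1 encodes NKG2D, an activating receptor for stress-induced ligands that belongs to no CD94 dimer. Its signal was 13.07 in the cocaine rat against 13.14 in the control rat, a difference of -0.07 that turned positive under 3 of 5 other scalings of the arrays. Klrk1 thus stood apart from the Klrc genes, although it is the next receptor gene on the chromosome. In the order of genes on chromosome 4 (GRCr8), Klrk1, Klrc3, Klrc2, Klrc1, Klri1, Klri2 and Klrh1 follow each other. Their differences were -0.07, 0.46, 1.01, 1.39, 0.61, -0.04 and -1.35 in this order, the last 2 from genes under background. The 4 positive differences of this stretch were those of neighbouring genes. The stretch begins at Klrk1, and just before it lie Klre1 (0.23, under background) and Klrd1 (0.59). Positive differences thus lay on both sides of Klrk1.

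**Figure D4:**
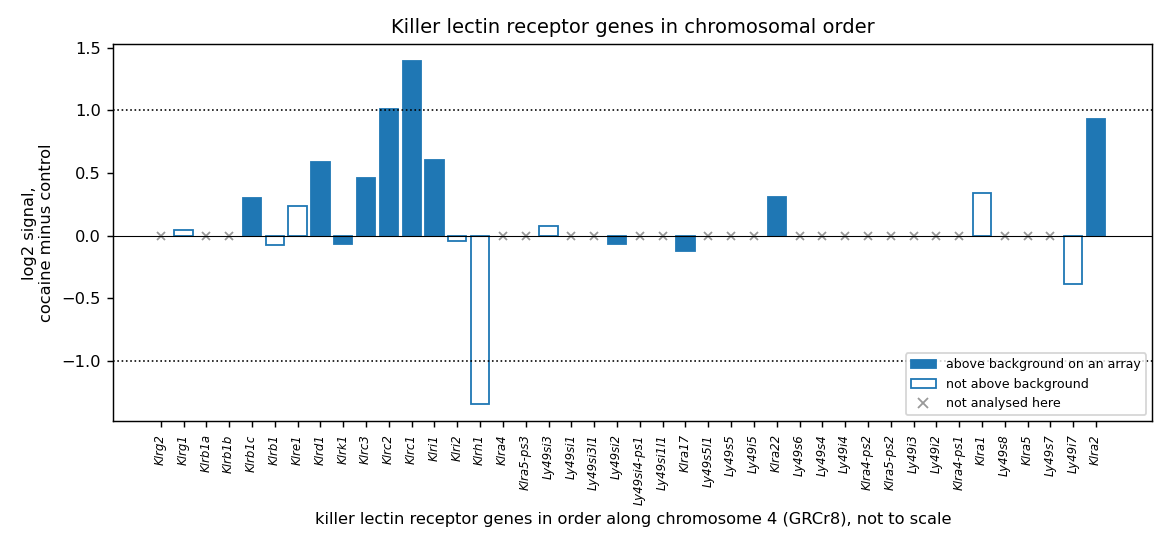
Difference in log2 signal (cocaine minus control) of killer lectin receptor genes in their order along chromosome 4 (GRCr8), not to scale. Filled bars are genes above background, open bars genes under it, crosses on the zero line mark genes not analysed here (they carry no value), and dotted lines mark 2-fold. Among genes above background the tallest bars are those of Klrc1 (1.39) and its neighbour Klrc2 (1.01), and the long open bar is Klrh1 (-1.35).

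Klri1 encodes a receptor that forms dimers with Klre1. Its signal was 9.90 in the cocaine rat against 9.29 in the control rat, a difference of 0.61. Klre1 and Klri2, the activating counterpart of Klri1, were both under background on both arrays. The NKR-P1 receptors bind Clec2 proteins. Klrb1c, of this family, had 11.99 in the cocaine rat against 11.70 in the control rat, a difference of 0.30, while Klrb1 was under background (5.94 in the cocaine rat against 6.01 in the control rat). Klrg1, an inhibitory receptor for cadherins, was under background as well (4.16 in the cocaine rat against 4.12 in the control rat). Klrh1 had 4.29 in the cocaine rat against 5.64 in the control rat, a difference of -1.35 far below the background limit on both arrays.

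The Ly49 family, named Ly49 or Klra, holds inhibitory and activating receptors for classical MHC class I. Klra2 had 9.64 in the cocaine rat against 8.70 in the control rat, a difference of 0.93 (1.91-fold) that passed 2-fold under 3 of 5 other scalings (0.92 to 1.03 over the 5). Klra22 had 9.29 in the cocaine rat against 8.98 in the control rat, a difference of 0.31. Ly49si2 had 12.54 in the cocaine rat against 12.60 in the control rat, a difference of -0.07 whose sign turned under 2 of 5 other scalings. Klra17 had 9.42 in the cocaine rat against 9.55 in the control rat, a difference of -0.13 that stayed below 0 under each of the 5 scalings. Klra2 alone of this family was thus past 1.5-fold. The differences of Klra22, Ly49si2 and Klra17 lay within the quartiles of all transcript clusters (-0.27 and 0.35). Klra1, Ly49si3 and Ly49i7 were under background, with differences between -0.38 and 0.34. The median of the 7 genes was 0.07. The annotation lists 20 protein-coding genes of the family, so that 13 were not analysed here, and how far probes of 1 gene also bind the transcripts of a close relative was not tested.

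Granule genes above background all had a higher signal in the cocaine rat. Gzma encodes granzyme A, a protease that cuts after basic residues. Its signal was 9.49 in the cocaine rat against 7.85 in the control rat, a difference of 1.65 (3.13-fold, rank 29 of 23188), and the control signal was just above background. Gzmk, the neighbour of Gzma among granzyme genes on chromosome 2 and a protease of like specificity, had 9.24 in the cocaine rat against 8.77 in the control rat, a difference of 0.47. Prf1 encodes perforin. Its signal was 11.02 in the cocaine rat against 10.34 in the control rat, a difference of 0.68. Ctsw encodes cathepsin W, a cysteine protease of NK cells and CD8 T cells. Its signal was 10.96 in the cocaine rat against 10.11 in the control rat, a difference of 0.85 (1.81-fold). Nkg7, a granule membrane protein, had 7.87 in the cocaine rat against 7.83 in the control rat, a difference of 0.04 just above the background limit. The 5 genes thus differed by very unequal amounts, with Gzma and Nkg7 at the ends. Each was set beside the differences of the 500 transcript clusters nearest to it in mean signal. The 95th percentile of these was 0.81 for Gzma, 0.89 for Ctsw, 0.89 for Prf1, 0.84 for Gzmk and 0.87 for Nkg7. Gzma alone lay above this percentile, and the other granule genes above background lay below it.

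The other granule genes were under background on both arrays. Gzmb encodes granzyme B, which cleaves after aspartate and activates caspases. Its signal was 5.96 in the cocaine rat against 5.46 in the control rat. The 5 granzyme genes of chromosome 15, Gzmb, Gzmc, Gzmf, Gzmfl1 and Gzmn, were all under background, with differences between -0.31 and 0.50 and a median of 0.25. Gzmm, granzyme M, had 7.70 in the cocaine rat against 7.75 in the control rat, both just under the limit. Granzyme signals above background thus came from Gzma and Gzmk.

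Receptors without a signalling tail depend on adaptors. Tyrobp (DAP12) serves activating Ly49 receptors and NKG2C. Its signal was 13.68 in the cocaine rat against 13.38 in the control rat, a difference of 0.30. Hcst (DAP10), the partner of NKG2D, had 8.91 in the cocaine rat against 8.95 in the control rat, a difference of -0.04 whose sign turned under 3 of 5 other scalings. Fcer1g, the common gamma chain of Fc receptors, serves natural cytotoxicity receptors and is also abundant in macrophages, neutrophils and mast cells. Its signal was 15.19 in the cocaine rat against 15.83 in the control rat, a difference of -0.64 (1.56-fold lower). Fcer1g was thus the only gene above background among the 36 that was lower by 1.5-fold. Beside it, 11 of 14 markers of macrophages and monocytes were below 0 (median -0.30, 0 of 14 lower by 2-fold), as were 8 of 9 markers of neutrophils (median -0.82, 3 of 9 lower by 2-fold), although 3 of these 9 were above background and Camp, one of the lower ones, was not. Of all transcript clusters, 4.57% were lower by 2-fold. The part of macrophages, monocytes and neutrophils in the signal of Fcer1g was not tested. Of 10 markers of mast cells and basophils, 1 was above background (Kit, 7.81 in the cocaine rat against 7.80 in the control rat).

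Ncr1 encodes NKp46, a receptor that marks NK cells. Its signal was under background on both arrays, 7.28 in the cocaine rat against 6.74 in the control rat. Ncr3 was under background too, with 6.76 in the cocaine rat against 6.85 in the control rat. Tbx21 encodes T-bet, a transcription factor of NK cells and cytotoxic T cells. It had 6.54 in the cocaine rat against 6.29 in the control rat, both under background.

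Markers of the cells that carry these genes were set beside them. Of all transcript clusters, 2.6% were higher by 2-fold and 4.57% lower. Of 15 listed markers of NK cells, 10 had a value, 8 were above background, and the median difference was 0.63, with 2 of 10 higher by 2-fold and 0 lower. Since 6 of the 10 are among the 36 genes, this list is no separate evidence. The other 4, Ccl5, Il2rb, Xcl1 and Fcgr3a, had a median of 0.82. It rests in part on Xcl1, which was under background on both arrays (6.91 in the cocaine rat against 6.10 in the control rat). This median is therefore only a description. Il2rb, a chain of the receptor for interleukin-2 and interleukin-15, had 11.13 in the cocaine rat against 10.30 in the control rat, a difference of 0.83. Ccl5, a chemokine of NK cells and CD8 T cells, had 11.05 in the cocaine rat against 9.68 in the control rat, a difference of 1.36 (2.57-fold). Markers of CD8 T cells were above 0 in 5 of 5, with a median of 0.51. This list too overlaps, since Gzmk is among the 36 genes and Ccl5 is also a marker of NK cells, and Crtam was under background. Among them, Cd8b had 9.93 in the cocaine rat against 9.32 in the control rat, and Cd8a had 11.07 in the cocaine rat against 10.56 in the control rat. Granule genes are used by both cell types, and their parts in these signals cannot be told apart.

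Markers of T cells had a median of 0.20 (1 of 18 higher by 2-fold, 0 lower), with Bcl11b at 1.11 (at least 1.71-fold, its control signal being under background), Cd3d at 0.96, Cd8b at 0.61 and Cd4 at -0.69. Markers of B cells had a median of 0.19 (1 of 12 higher, 0 lower), with Bank1 at 1.37, Cr2 at 0.88, Fcer2 at -0.93 and Spib at -0.72. Markers of erythroid cells were lower by at least 2-fold in 9 of 9, with a median of -6.47. The cocaine signal was under background for 2 of them, and raised to it they were lower by at least 73.7-fold (Epb42) and at least 46.3-fold (Rhag), with a median of the 9 of -6.20. Hemgn (-6.64) and Ahsp (-6.48) were above background on both arrays. The lower erythroid signals accompanied each difference given here, and their part in them was not tested. In RNA of a tissue, a change in the number of cells of a type and a change in the RNA per cell cannot be told apart. Among macrophage markers, C1qa was at -0.75, Csf1r at -0.64, Cd68 at -0.44 and Cd163 at -0.37. Among neutrophil markers, S100a9 was at -1.39, S100a8 at -1.12, while Mmp8 was lower by at least 1.198-fold, its cocaine signal being under background. The list medians of NK, T and B cell markers thus lay above that of all transcript clusters (0.05) and those of macrophage and neutrophil markers below it, with single genes of each list on either side.

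**Figure D5:**
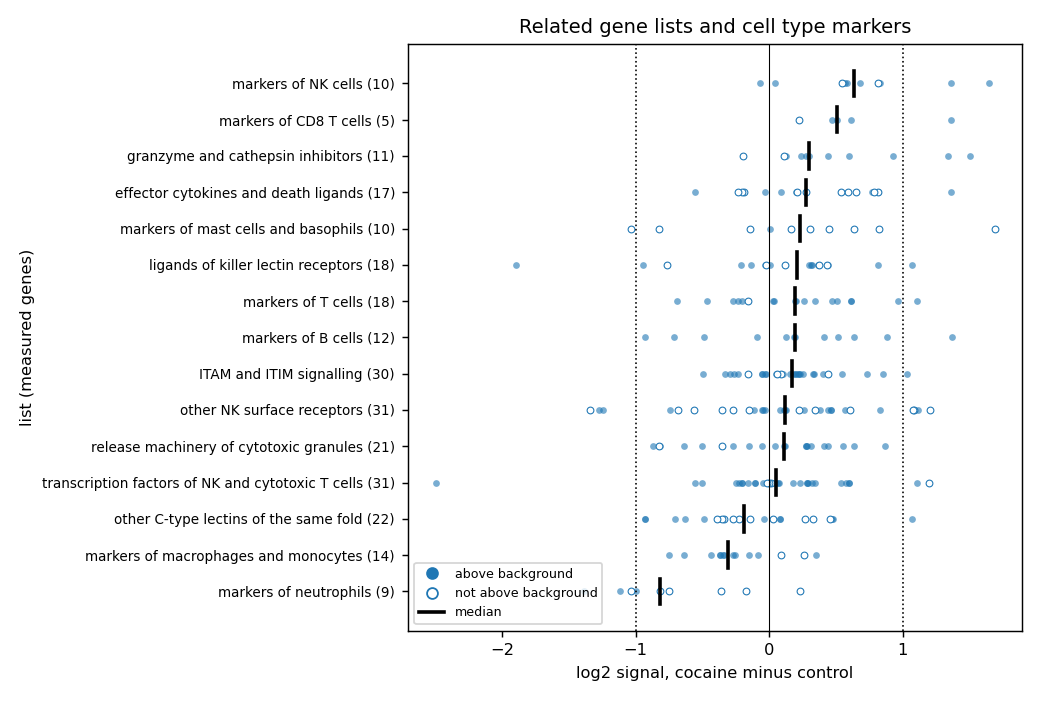
Difference in log2 signal (cocaine minus control) of the genes in 8 related gene lists and 7 lists of cell type markers, with the number of measured genes in parentheses. Filled points are above background, open points under it, thick bars are medians and dotted lines mark 2-fold. Markers of NK cells have the highest median (0.63) and markers of neutrophils the lowest (-0.82); markers of erythroid cells (median -6.47) lie outside the axis and are left out.

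Related genes of the killing machinery were then examined. Beside their counts past 2-fold stand 2.6% higher and 4.57% lower of all transcript clusters. A count of 1 in a list is therefore no result about that list. Of 21 genes for the maturation and release of cytotoxic granules, 0 were past 2-fold either way, and their median was 0.11. The largest differences were those of the vesicle protein Vamp7 (0.87), the adaptor complex subunit Ap3d1 (-0.87), Unc13d, which primes granules for fusion (-0.82), and the protease Ctsl (-0.64). Of the 21, 12 had a difference above 0 and 9 below.

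Of 11 genes listed as inhibitors of granzymes and cathepsins, 2 were higher by 2-fold and 0 lower, with a median of 0.30. Serping1 had 11.48 in the cocaine rat against 9.97 in the control rat, a difference of 1.51. It is best known as the inhibitor of the complement protease C1, so that the count of 2 is not one of granzyme and cathepsin inhibitors alone. Serpinb6b, known in mouse as an inhibitor of granzyme A, had 14.15 in the cocaine rat against 12.81 in the control rat, a difference of 1.34. Serpina3n differed by 0.93 with its control signal under background (at least 1.38-fold), and Cst3 by 0.60.

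Of 17 effector cytokines and death ligands, 7 were above background, 1 was higher by 2-fold (Ccl5) and 0 lower, with a median of 0.28. This median was the value of Tnf, a gene under background, and cannot be read as a difference in RNA. Ltb differed by 0.77, Ccl3 by -0.56 and Il12b by 0.81, the last with its control signal under background (at least 1.11-fold). Of 30 genes of signalling from activating and inhibitory motifs, 1 was higher by 2-fold and 0 lower, with a median of 0.17. It was Syk, a kinase of NK cells and B cells, with 14.75 in the cocaine rat against 13.72 in the control rat. The adaptors Lat2 (0.85) and Dok2 (0.73) and the ubiquitin ligase Cblb (0.54) followed.

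Of 31 other surface receptors of NK cells, 4 were higher by 2-fold and 3 lower, with a median of 0.12, and 3 of the higher and 1 of the lower were under background. Above background were Fcgr2b, an inhibitory Fc receptor also carried by B cells (1.12), Lilrb4 (-1.28) and Siglec5 (-1.25), the last with its cocaine signal under background (at least 1.85-fold lower). Both are inhibitory receptors found on myeloid cells. Of 31 transcription factors of NK cells and cytotoxic T cells, 2 were higher by 2-fold and 1 lower, with a median of 0.05. Foxo3 was lower, with 10.02 in the cocaine rat against 12.52 in the control rat, a difference of -2.50 (5.65-fold). The part of other cells of the spleen in the signal of Foxo3, erythroid cells among them, was not tested. Bcl11b was higher by at least 1.71-fold and Id3 by at least 1.09-fold, their control signals being under background. The other gene past 2-fold, Zbtb16, was under background on both arrays, and Gata3 differed by 0.60.

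Of 18 ligands of killer lectin receptors, 1 was higher by 2-fold and 1 lower, with a median of 0.21 that rests in part on a gene under background (Mill1). Clec2g, of the family bound by NKR-P1 receptors, had 16.68 in the cocaine rat against 15.61 in the control rat, a difference of 1.07. Clec2l had 5.89 in the cocaine rat against 7.79 in the control rat, and with the cocaine signal raised to background the difference was at least 1.02-fold. Cdh1, E-cadherin, the ligand of Klrg1, had 11.27 in the cocaine rat against 12.21 in the control rat, a difference of -0.94. RT1-A2, a classical MHC class I gene, had 10.65 in the cocaine rat against 9.83 in the control rat, a difference of 0.81. Of 22 other C-type lectins of the same fold, 1 was higher by 2-fold (Clec2g) and 0 lower, with a median of -0.19. In this list Fcer2 differed by -0.93 and Clec4a1 by -0.70, while Clec12a was lower by at least 1.40-fold, its cocaine signal being under background. These 22 listed lectins thus had a median below 0, that of the killer lectin receptors being 0.23, the value of a gene under background. Above background were 12 of the 22 (median -0.20) and 11 of the 19 receptors (median 0.46). Clec12a passed through its control signal alone and Klrc2 through its cocaine signal alone, so that these medians are only a description.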

How the data were processed

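The deposited table held log2 signals for 24834 features on 2 arrays, summarised by the authors to 1 value per transcript cluster. By the methods, RNA was extracted with TRIzol, purified on RNeasy columns with DNase I digestion. The labels give biotin as the label. How background was corrected and signals were normalized was not given in the sources used here. The same holds for the array's genome build, so positions on it were left out. Both columns were used, and 0 were left out. Control features (1646) were removed, which left 23188 transcript clusters, of which 15049 had 1 symbol. All 36 members were matched to RefSeq by Entrez identifier, and 0 symbols changed. Both arrays had a median signal of 6.97 and were not scaled further. The number of arrays, 1 per group, limits the precision.

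Differences, counts past 2-fold and medians were computed with no test. Where only the lower signal was under the highest background feature, it was raised to it and the fold of a gene named in the text given as at least that size. Named were all granule, adaptor, Ncr and transcription factor genes, receptors above background, past 2-fold or defining their family, and in each list the 4 genes with the largest difference above background. The symbol rule for members uses no signal, but it, the lists and the motifs were chosen with earlier results of these data known. Other receptors are named to account for all members. The alternatives tried included 5 scalings, namely quantile normalization, loess with a span of 0.3, and centring of each array on its median, its 75th percentile or its brighter clusters. They also included filters, a floor, other thresholds and, chosen after seeing the data, leaving out Klrc1 to Klrc3 or the Ly49 and Klra receptors. The code was tested on simulated data. Promoter windows were aligned globally for their identity. Software was statsmodels 0.14.6, scipy 1.17.1, Biopython 1.88, pandas 2.3.3, numpy 2.4.6 and matplotlib 3.10.9 under python 3.11.15.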

Additional observations from a re-analysis of the deposited data

How the results depend on the processing

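With no replicates, a median was taken as unchanged where it moved by at most 0.1, and a count where it stayed within 1.5 times. Of 110 values under alternatives, 87 were unchanged by this measure, 20 moved, 3 fell under 2-fold and 0 changed sign among called values. The 5 scalings moved the median of all transcript clusters by at most 0.09. With a filter at the median signal, 0 genes were lower by 2-fold, and the medians were 0.38 for all members, 0.38 for receptors and 0.57 for granule genes. With a filter at the highest background feature, 0 were lower, and the medians were 0.46, 0.46 and 0.68 in the same order. Klrc2 passed this filter through its cocaine signal alone. With signals under background raised to it, 0 were lower, and the 3 medians and the difference between classes were 0, since 17 of 36 members were then equal on both arrays. At 1.5-fold, 8 genes were higher and 2 lower, and at 4-fold 0 and 0. Without Klrc1, Klrc2 and Klrc3, chosen after seeing the data, 1 gene was higher by 2-fold and the receptor median was 0.059. The granule gene median was 0.35 above that of receptors, but both medians came from genes under background. This gap too cannot be read as a difference in RNA. Klrc2 fell to 0.99 with loess and to 0.99 with the floor, and Klrh1 had a difference of 0 with the floor. Gzma stayed between 1.63 and 1.74 and Klrc1 between 1.38 and 1.495 under the alternatives run. No paired analysis was possible because each group had 1 sample. Leaving out a replicate was not possible for the same reason. Signals near background limit what can be said of the 17 genes under it.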
